A study of Mus musculus with 6 samples.

Results

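Nerve terminals release transmitter when synaptic vesicles fuse with the plasma membrane. Fusion is driven by SNARE proteins, of which the vesicle carries synaptobrevin and the plasma membrane carries SNAP-25 and a syntaxin. Synaptotagmins sense the calcium that triggers fusion, complexins hold and then assist the assembled SNAREs, and synapsins keep vesicles clustered near the release site.

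The 8 genes described here encode parts of this presynaptic machinery and were taken by gene symbol from a table of 55367 symbols, where all 8 had a row. They are the SNARE genes Snap25 and Vamp2, the complexin gene Cplx2, the synaptotagmin genes Syt1 and Syt11, the vesicle membrane gene Syp and the synapsin genes Syn1 and Syn2. Their RNA was profiled by Smart-seq2 in 6 libraries, made from tdTomato+ neurons sorted from the hippocampal dentate gyrus (DG). The mice of both groups were TRAP2;Ai9, carrying a Fos-iCreERT2 driver and a Rosa26-LSL-tdTomato reporter, so that cells with Fos activity during tamoxifen exposure keep a red label, and mice of both groups had gone through learned helplessness (LH), a stress procedure. The Run group (LH+ Run, 3 libraries) then had 28 days of voluntary running, and the NR group (LH+ NR, 3 libraries) did not run. The sources used here state neither the age of the mice nor how many cells or animals stand behind a library, so p-values reflect library-to-library variation, part of which may be technical. The Fos driver marks active cells of any kind in which it works, so the label is not itself a test of neuronal identity.

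Values are FPKM, which scales fragments by transcript length and by library size, so levels of different genes can be set side by side per length. The summed FPKM of a library ranged from 473786 to 492021, and 5426 to 7355 symbols reached FPKM 1. Read depth is unknown from such values. Smart-seq2 amplifies by PCR without molecular identifiers. Of 12 housekeeping genes, 2 (Tbp in 3 libraries and Polr2a in 2) had a 0 somewhere among the 6 libraries, so a gene below FPKM 1 is said here to be listed at that value and is given per library. The pan-neuronal markers fitted the label in part: 2 of 12 reached FPKM 1 in all 6 libraries, with a summed level of 399 to 917 FPKM in Run and 209.7 to 597 in NR. None of 12 granule neuron markers did so, with sums of 46.8 to 181 FPKM in Run and 18.2 to 166 in NR. None of 10 CA pyramidal markers did either (24.4 to 114.5 FPKM in Run, 7.32 to 135 in NR), nor of 11 interneuron markers (23.7 to 238 in Run, 52.2 to 122 in NR). The interneuron sum was above the granule sum in Run replicate 3 and NR replicates 1 and 3. The CA pyramidal sum was above it in NR replicate 3 only. Astrocyte markers reached FPKM 1 in all 6 libraries for 10 of 12 genes, with sums of 2879 to 5512 FPKM in Run and 2650.0 to 4973 in NR. Endothelial markers did so for 5 of 10 genes, with sums of 1938 to 2416 FPKM in Run and 1927 to 4020 in NR. These sums were above the pan-neuronal sum of every library, but 1 gene, Bsg, made up much of them. Bsg had 1097, 826 and 979 FPKM in Run and 1846, 1844 and 1078 in NR, so the order does not describe endothelial markers as a set. Oligodendrocyte sums were 183 to 998 FPKM in Run and 257 to 1545 in NR, and mural sums 317 to 743 in Run and 499 to 1759 in NR. In such libraries fewer cells of a type and less RNA per cell cannot be told apart.

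Sequence before the transcription start was available for 6 of the 8 genes, from a RefSeq table of build GRCm38.p6. The synapsin pair is shown because Syn1 and Syn2, which encode close relatives, had only 1 of the pair at FPKM 1 or more in 3 of the 6 libraries and had differences of opposite sign, neither of which passed the test. Each line gives the bases before the RefSeq start, 5′ to 3′ on the strand of the gene, up to the first base that GENCODE M21 places in an exon. Syn1 lies on the minus strand (chrX:20921005-20921168, 164 bases) and Syn2 on the plus strand (chr6:115134652-115134901, 250 bases).
Syn1: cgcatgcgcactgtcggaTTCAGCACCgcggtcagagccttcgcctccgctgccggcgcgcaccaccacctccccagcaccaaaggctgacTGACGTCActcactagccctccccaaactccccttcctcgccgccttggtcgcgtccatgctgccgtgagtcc
Syn2: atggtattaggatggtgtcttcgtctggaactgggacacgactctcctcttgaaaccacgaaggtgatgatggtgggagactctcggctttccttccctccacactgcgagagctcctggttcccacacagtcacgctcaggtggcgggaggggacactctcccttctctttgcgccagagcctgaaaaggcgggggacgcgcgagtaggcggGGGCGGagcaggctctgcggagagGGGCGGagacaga
Capitals mark matches on either strand to 3 motifs. TTCAGCACC, the left part of the element bound by the neuronal gene repressor REST, occurred in the Syn1 window and in 0.301% of 32851 windows of 250 bases. TGACGTCA, the palindromic cyclic AMP response element, also occurred in the Syn1 window and in 1.55% of windows. GGGCGG, the core of the Sp1 binding site, occurred in the Syn2 window shown and in 32.7% of windows. It was also found in windows of Syt1, Syt11 and Syp, so it does not set Syn2 apart. Neither of the 2 rarer motifs was found in the windows of Syn2, Syt1, Syt11, Syp or Cplx2. The Cplx2 window (chr13:54302306-54302555) lay well before the GENCODE M21 start of that gene at 54371349. The Syt11 window (chr3:88772600-88772849) lay inside the GENCODE gene, as did a second window each of Syt1 and Syn2. For Cplx2 and Syt11 the absence therefore does not describe the start that GENCODE gives. The matches describe letters in a window and were not tied to any value below.

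Every one of the 8 genes was tested for Run minus NR on log2(FPKM + 1), a scale that understates changes of low genes. The test was limma, 2-sided, with Benjamini-Hochberg adjustment over the 6155 symbols for which 3 or more libraries had FPKM 1 or above. All 8 genes passed that filter. None of them passed an adjusted p of 0.05, against a background of 0.0% of all tested genes, and none had an unadjusted p under 0.05, where the background was 304 genes or 4.94%. For each of the 8 genes the values of the groups overlapped. Of all tested genes, 4.76% had every Run library above every NR library and 4.19% had every Run library below. At such shares the overlap of 8 genes does not set them apart. Of the 8 differences, 6 were positive and 2 negative, with a median of 0.39, beside 48.9% positive and a median of -0.03 over all tested genes. Without NR replicate 1, 4 of the 8 were positive.

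**Figure D1:**
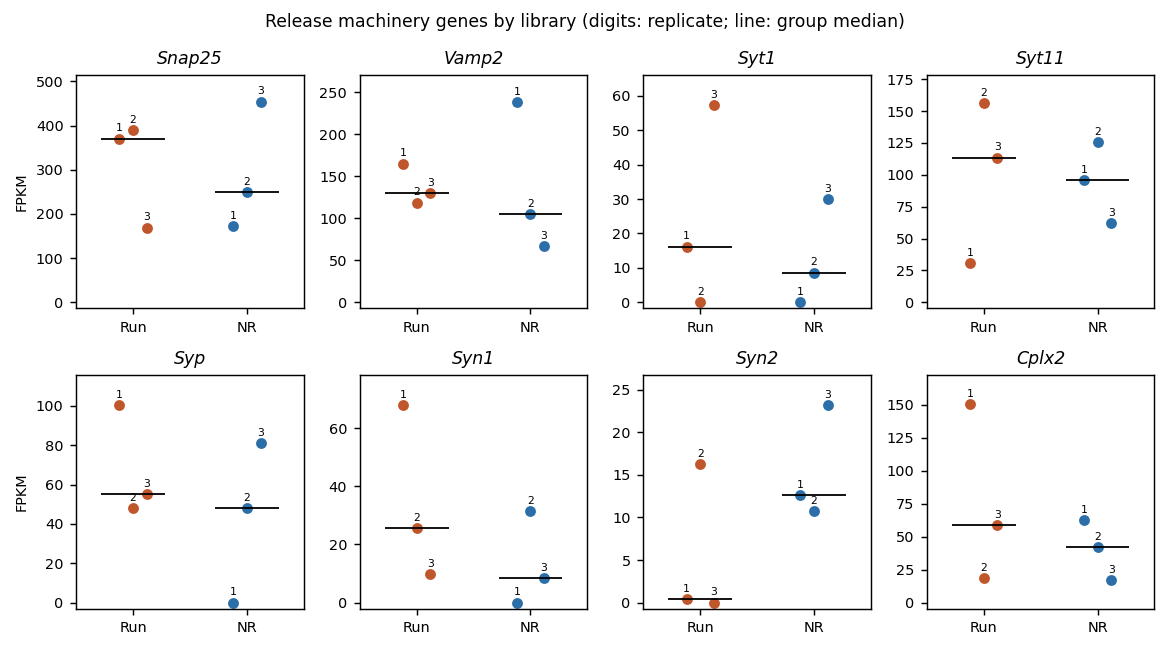
FPKM (linear axes) of each of the 8 genes, 1 panel per gene, with Run libraries on the left and NR libraries on the right; digits give the replicate and the black line the group median. Run and NR points overlap in every panel, and Syp, Syn1 and Syt1 lie at or near 0 in NR replicate 1.

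By median over the 6 libraries the SNARE genes were the most abundant of the 8, although Vamp2 was below Syt11 in Run replicate 2 and NR replicate 2 and below Syp in NR replicate 3. Snap25 (chromosome 2, 136713453 to 136782428, plus strand) encodes the plasma membrane SNARE that contributes a pair of helices to the fusion complex. It had 370.2, 390.5 and 169 FPKM in Run replicates 1, 2 and 3, against 172, 249 and 454 in NR replicates 1, 2 and 3. Run replicate 3 and NR replicate 1 were lowest and NR replicate 3 was highest, so each group spanned most of the range of the other. The means were 309.9 ± 122 FPKM in Run and 292 ± 146 in NR (SD, n = 3 each). The log2 difference was 0.11 ± 0.54 (SE), with a 95% interval of -1.17 to 1.39 and a limma adjusted p = 0.987. The direction rested on which libraries entered: the difference was -0.07 without Run replicate 1, -0.10 without Run replicate 2 and -0.21 without NR replicate 1. Among symbols at FPKM 1 or more in the same library, Snap25 stood in the top 2.09% to 8.78% in Run and in the top 1.89% to 8.55% in NR.

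Vamp2 (chromosome 11, 69088490 to 69092384, plus strand) encodes synaptobrevin 2, the vesicle SNARE of fast release. Its values were 165, 119 and 129.7 FPKM in Run and 238, 105 and 66.5 in NR. The Run libraries lay close together, inside the wider span of NR, where replicate 1 was highest and replicate 3 lowest. The means were 138 ± 24.2 FPKM in Run and 136 ± 89.96 in NR (SD, n = 3 each). The log2 difference was 0.20 ± 0.62 (SE), with a 95% interval of -1.26 to 1.66 and a limma adjusted p = 0.983. Without NR replicate 3 the difference was -0.21.

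The 2 SNARE genes did not keep a fixed proportion. The ratio of Snap25 to Vamp2 FPKM was 2.24, 3.29 and 1.30 in Run replicates 1, 2 and 3 and 0.724, 2.38 and 6.84 in NR replicates 1, 2 and 3. NR replicate 1 was the library in which Vamp2 exceeded Snap25, and NR replicate 3 had the highest ratio, so the span within NR was wider than any distance between the groups.

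Cplx2 (chromosome 13, 54371349 to 54383917, plus strand), with a single annotated transcript, encodes complexin 2, which binds assembled SNAREs. It had 150.2, 18.3 and 58.9 FPKM in Run and 62.6, 42.2 and 17.1 in NR. Run replicate 1 stood above all other libraries, while Run replicate 2 and NR replicate 3 were about equally low. The means were 75.8 ± 67.5 FPKM in Run and 40.7 ± 22.8 in NR (SD, n = 3 each). The log2 difference was 0.60 ± 1.01 (SE), with a 95% interval of -1.80 to 3.003 and a limma adjusted p = 0.979. Without Run replicate 1 the difference was -0.11.

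The synaptotagmin genes differed in detection, with Syt11 at FPKM 1 or more in 6 libraries and Syt1 in 4. Syt1 (chromosome 10, 108497650 to 109010982, minus strand) encodes the calcium sensor of fast, synchronous release. It had 16.2, 0 and 57.3 FPKM in Run and 0.00535, 8.62 and 29.97 in NR. Each group held 1 library at or near 0 and 2 libraries above FPKM 1, with the highest value in Run replicate 3. The log2 difference was 0.58 ± 2.04 (SE), with a 95% interval of -4.26 to 5.42 and a limma adjusted p = 0.983. It was -0.69 without Run replicate 3 and -0.79 without NR replicate 1.

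Syt11 (chromosome 3, 88744700 to 88775164, minus strand) encodes a synaptotagmin that does not bind calcium and takes part in vesicle trafficking and membrane retrieval. It had 30.4, 156 and 114 FPKM in Run and 95.8, 125.5 and 62.1 in NR. All 6 libraries were above FPKM 1, with both the lowest and the highest value in Run. The means were 100.1 ± 63.9 FPKM in Run and 94.5 ± 31.7 in NR (SD, n = 3 each). The log2 difference was -0.15 ± 0.78 (SE), with a 95% interval of -2.0 to 1.70 and a limma adjusted p = 0.988. The difference was 0.55 without Run replicate 1 and 0.08 without NR replicate 2. In the 4 libraries where both synaptotagmin genes reached FPKM 1, the ratio of Syt11 to Syt1 was 1.88 in Run replicate 1, 1.98 in Run replicate 3, 14.6 in NR replicate 2 and 2.07 in NR replicate 3. Syt11 had the higher value in each of the 6 libraries.

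Syp (chromosome X, 7638471 to 7653256, plus strand) encodes synaptophysin, an abundant vesicle membrane protein that binds synaptobrevin. Its values were 100.3, 47.99 and 55.1 FPKM in Run and 0.0189, 47.9 and 81.3 in NR. NR replicate 1 stood alone near 0, and the other 5 libraries lay within a common range. The log2 difference of 2.03 ± 1.71 (SE), with a 95% interval of -2.01 to 6.07 and a limma adjusted p = 0.978, was 0.04 without NR replicate 1. Its relatives Sypl and Synpr had means of 51.7 and 26.9 FPKM over the 6 libraries, beside 55.4 for Syp.

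Syn1 (chromosome X, 20860511 to 20921004, minus strand) encodes synapsin I, a phosphoprotein that tethers vesicles in clusters. It had 67.9, 25.7 and 9.82 FPKM in Run and 0, 31.6 and 8.36 in NR. Run replicate 1 was highest, NR replicate 1 was listed at 0, and the other 4 libraries were mixed. The log2 difference of 2.01 ± 1.61 (SE), with a 95% interval of -1.81 to 5.83 and a limma adjusted p = 0.978, was 0.63 without NR replicate 1 and 1.34 without Run replicate 1. Araf, which encodes a kinase and overlaps Syn1 on the opposite strand, had 168, 169 and 96.8 FPKM in Run and 178, 1.20 and 18.4 in NR. The sources used here do not say whether fragments were assigned by strand, so reads of overlapping genes may not have been told apart. Timp1, which lies within Syn1 on the opposite strand, was listed at 0 in all 6 libraries.

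Syn2 (chromosome 6, 115134902 to 115282006, plus strand) encodes synapsin II and had the opposite sign. It had 0.381, 16.3 and 0 FPKM in Run and 12.7, 10.7 and 23.2 in NR. All 3 NR libraries were above FPKM 1, while in Run only replicate 2 was, and that library lay between NR replicates 1 and 3. The log2 difference was -2.45 ± 1.49 (SE), with a 95% interval of -5.97 to 1.07, a limma unadjusted p = 0.144 and an adjusted p = 0.978. Without Run replicate 2 it was -3.74, with a limma adjusted p = 0.485, and without Run replicate 3 it was -1.69. Timp4, a metalloproteinase inhibitor gene on the opposite strand within Syn2, had 14.8, 59.4 and 29.99 FPKM in Run and 47.6, 46.9 and 11.8 in NR. The synapsin pair thus differed by library: Run replicates 1 and 3 had Syn1 above FPKM 1 with Syn2 below it, NR replicate 1 had Syn2 with Syn1 listed at 0, and the other 3 libraries had both. In those 3 libraries the ratio of Syn1 to Syn2 was 1.58 in Run replicate 2, 2.94 in NR replicate 2 and 0.361 in NR replicate 3.

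**Figure D2:**
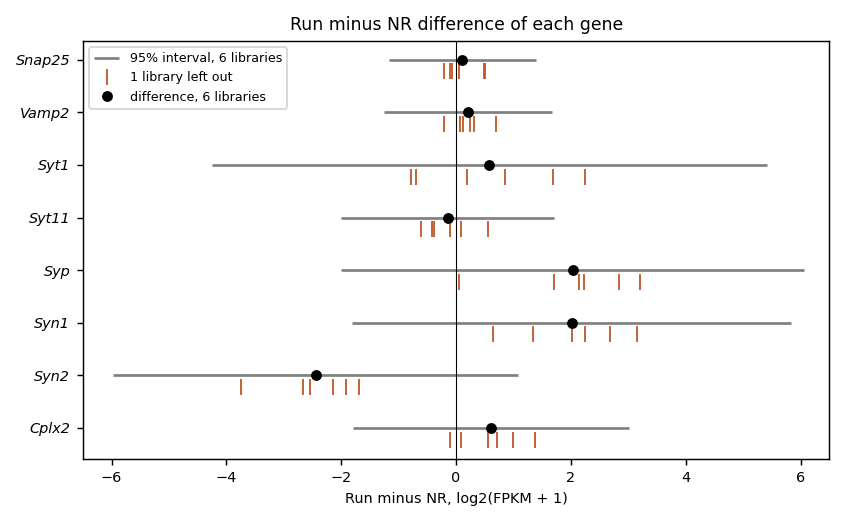
Run minus NR difference in log2(FPKM + 1) for each gene; black points are the difference over 6 libraries, grey lines its 95% interval from limma and red ticks the differences with 1 library left out. All 8 intervals include 0, and those of Syt1, Syp, Syn1 and Syn2 are the widest.

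The genes differed in how evenly they were measured. Snap25, Vamp2, Syt11 and Cplx2 reached FPKM 1 in all 6 libraries, with a residual SD between libraries of a group of 0.69, 0.68, 0.94 and 1.24 on the log2 scale. The other 4 genes had at least 1 library below FPKM 1 and residual SDs of 2.77 for Syt1, 2.48 for Syp, 2.03 for Syn1 and 1.64 for Syn2, beside a median of 1.98 over all tested genes. A 2-sided exact permutation test over the libraries, in which 0.1 is the smallest p that 3 against 3 allow, gave p = 0.3 for Syn2, p = 0.4 for Syp and Syn1, p = 0.5 for Cplx2 and 0.8 to 1 for the remaining 4 genes. The intervals above show that differences of more than 1 log2 unit in either direction remained compatible with the data for all 8 genes.

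The number of the 8 genes at FPKM 1 or more was 7 in each Run library, and 5, 8 and 8 in NR replicates 1, 2 and 3. NR replicate 1 lacked Syt1, Syp and Syn1 at that level. In the same library 4 of 12 pan-neuronal markers reached FPKM 1, against 8 to 10 in Run and 11 and 7 in NR replicates 2 and 3. Its summed pan-neuronal level was the lowest of the 6 libraries at 209.7 FPKM, and its summed microglial level was also lowest, at 55.04 FPKM against 179 to 1222 in Run and 513 and 556.5 in NR replicates 2 and 3. Its summed mural level was the highest, at 1759 FPKM. Its summed astrocyte level of 4973 FPKM was second to Run replicate 2, which had 5512 FPKM with 8 pan-neuronal markers at FPKM 1. Whether the cells in that library had a part in the low values was not tested. Snap25, Vamp2, Syt11, Syn2 and Cplx2 were above FPKM 1 there, and Vamp2 had its highest value of all 6 libraries.

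Summed over the 8 genes, the level was 900.5, 773.5 and 593.5 FPKM in Run and 581, 620.2 and 743 in NR. That was 0.189%, 0.161% and 0.121% of the summed FPKM of the library in Run and 0.119%, 0.130% and 0.157% in NR. The mean shares were 0.157% ± 0.0346 in Run and 0.135% ± 0.0194 in NR (SD, n = 3 each), and the difference of 0.0219 percentage points was smaller than the SD within Run and larger than that within NR. It was 0.00578 without Run replicate 1 and 0.0401 without Run replicate 3, and all 6 values with 1 library left out were positive. Snap25 made up 28.5% to 50.5% of the sum in Run and 29.6% to 61.2% in NR. NR replicate 1 was the library with Vamp2 as the largest part, at 40.9%.

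**Figure D3:**
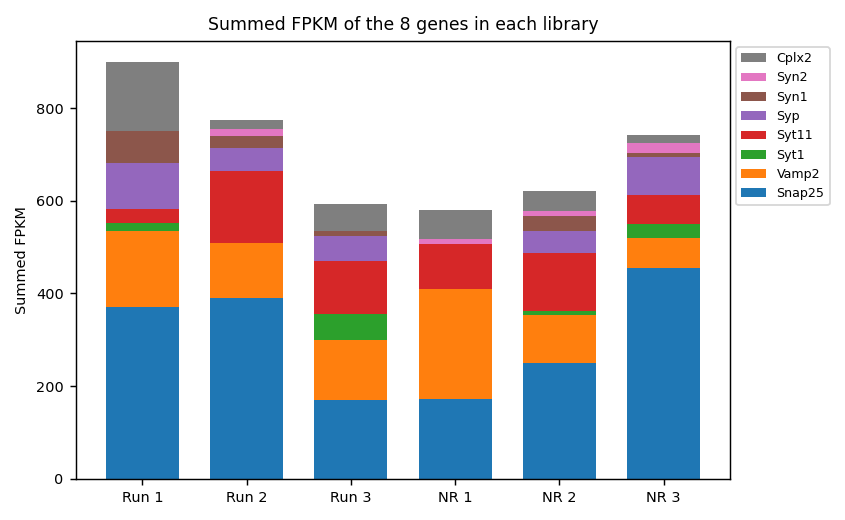
Summed FPKM of the 8 genes, stacked by gene, in each Run library and then each NR library. Sums lie between 581 and 900.5 FPKM, and Snap25 is the largest part in every library except NR replicate 1, where Vamp2 is.

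Snap25, Vamp2, Syt11, Cplx2, Syn1 and Syp each had the highest mean FPKM among their relatives on the wider list of release machinery genes described below, although ranges over libraries often overlapped. Snap25 had a median of 309.6 FPKM over the 6 libraries, and its relative Snap47, which ranged from 0 to 155, had 31.9. Snap23, the SNAP of most non-neuronal cells, had 12.4. Vamp2 had a median of 124, above Vamp3 at 69.95 and Vamp4 at 68.0, which act in endosomal traffic. For Vamp2 and Vamp4 the ranges over libraries, 66.5 to 238 and 5.86 to 105 FPKM, overlapped.

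Among 15 synaptotagmin genes Syt11 was the only one at FPKM 1 or more in all 6 libraries. Syt5, a calcium-binding relative, had 100.4, 0 and 48.4 FPKM in Run and 0, 88.6 and 0.117 in NR. Syt1 was the third by mean, with its range of 0 to 57.3 inside that of Syt5. Syt7, the sensor of slower release, had a median of 0.0315, and Syt2, Syt6, Syt9 and Syt14 were listed at 0 in every library.

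Among complexins, Cplx1 had 104, 0 and 90.2 FPKM in Run and was listed at 0 in all 3 NR libraries. Having FPKM 1 in only 2 libraries, it was not tested. Cplx2 was the complexin at FPKM 1 or more in all 6 libraries, and Cplx4, known from the retina, was listed at 0 in each. Syn3, the third synapsin, was listed at 0 throughout, while Syn1 and Syn2 had medians of 17.8 and 11.7 FPKM and overlapping ranges.

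Stx1a, a syntaxin that pairs with Snap25 at the terminal, was listed at 0 in all 3 Run libraries and had 18.2, 31.4 and 0 FPKM in NR. With FPKM 1 in only 2 libraries, Stx1a was not tested. Stx12, an endosomal syntaxin, had the highest mean of the syntaxin genes on the list, with 69.95, 26.6 and 43.9 FPKM in Run and 41.4, 95.5 and 96.7 in NR. Its log2 difference was -0.73 ± 0.74 (SE; limma adjusted p = 0.978).

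**Figure D4:**
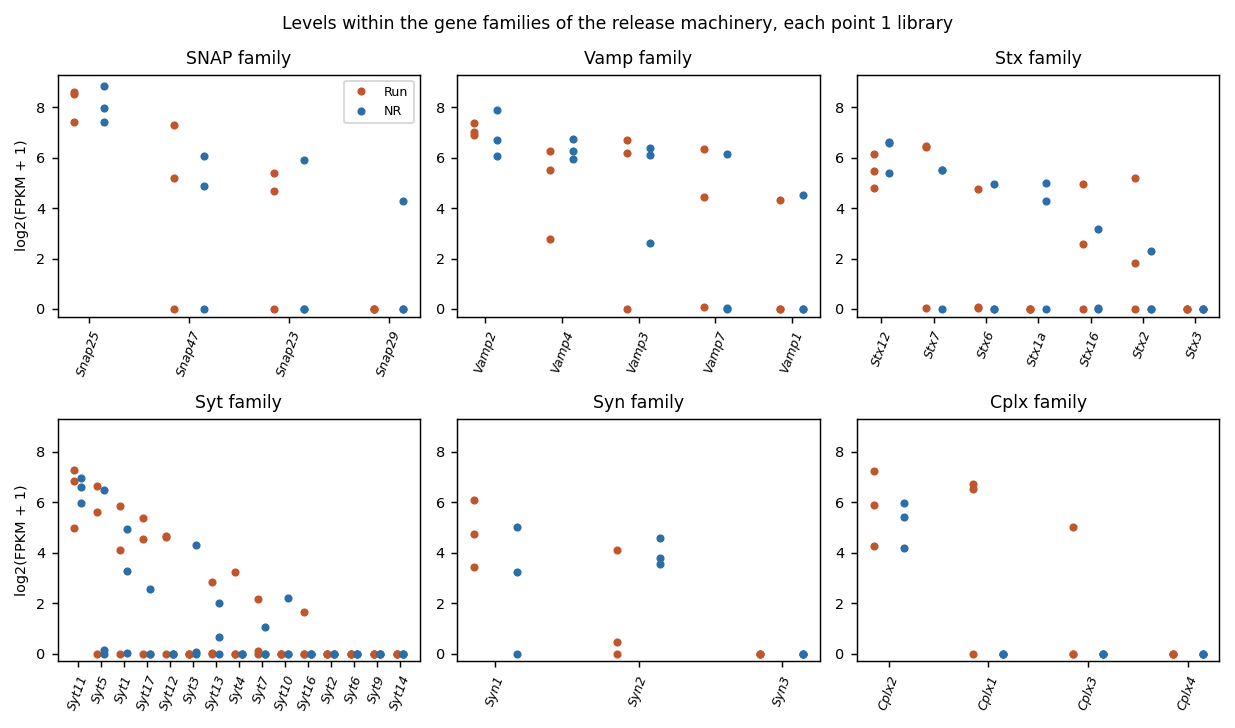
log2(FPKM + 1) of genes of 6 families, ordered by mean FPKM within each; each point is 1 library, Run to the left of NR. Snap25, Vamp2, Syt11 and Cplx2 head their families with no library at 0, whereas most relatives have libraries at 0.

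A wider list of 113 release machinery genes in 7 roles, which includes the 8 genes, placed them among their partners. Of these, 112 had a row, 21 reached FPKM 1 in all 6 libraries, 21 stayed below it in every library and 59 were tested. By limma none passed an adjusted p of 0.05 and none had an unadjusted p under 0.05. The differences were positive for 34 and negative for 25, with a median of 0.29, beside -0.03 over all tested genes. Every Run library lay above every NR library for 2 of the 59 and below for 0, shares under the 4.76% and 4.19% of all tested genes, so these counts do not set the list apart. The genes concerned act in endocytosis and were named after their values were seen: Ap2m1, an adaptor subunit, and Bin1, a membrane-bending protein. Ap2m1 had 134, 179 and 188.5 FPKM in Run and 109, 129.8 and 103 in NR (difference 0.54 ± 0.46 SE on the log2 scale; limma adjusted p = 0.978). Bin1 had 36.8, 46.5 and 44.2 FPKM in Run and 0, 6.38 and 19.4 in NR (difference 3.02 ± 1.37 SE on the log2 scale; limma adjusted p = 0.978). Amph, a relative of Bin1 on the same endocytosis list, went the other way without overlap, with 0.00726, 0.0123 and 0 FPKM in Run and 18.6, 0.522 and 32.2 in NR, and was not tested because only 2 libraries reached FPKM 1.

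By role, the SNARE list had 9 positive and 3 negative differences of 12 tested (median 0.57). Assembly, priming and disassembly factors had 5 positive and 3 negative of 8 (median 0.28), and calcium sensors 3 positive and 1 negative of 4 (median 1.23). Vesicle membrane and clustering genes had 4 positive and 5 negative of 9 (median -0.41), active zone scaffolds 1 positive and 2 negative of 3 (median -0.63), transmitter loading genes 3 positive and 5 negative of 8 (median -0.27) and endocytosis genes 9 positive and 6 negative of 15 (median 0.76). No role had a gene past the threshold.

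Detection also differed by role. Of 12 active zone scaffold genes, only Ppfia2, which encodes a liprin, reached FPKM 1 in all 6 libraries, at 8.61, 29.7 and 3.22 FPKM in Run and 5.36, 10.01 and 2.11 in NR. Erc1, another scaffold, had 0.0182, 11.8 and 0 in Run and 0.00849, 9.43 and 34.2 in NR. Of 14 loading genes, 7 reached FPKM 1 in all 6 libraries, and 5 were listed at 0 in all 6, namely Slc17a6, Slc17a8, Slc32a1, Slc18a2 and Slc18a3, which encode vesicular transmitter transporters. Slc17a7, the vesicular glutamate transporter of hippocampal principal neurons, had 29.5, 7.75 and 0 FPKM in Run and 0, 0.750 and 0 in NR. It reached FPKM 1 in only 2 libraries and was not tested. The most abundant loading genes were subunits of the proton pump that acidifies vesicles and other organelles of every cell. Atp6v0c had 422, 207 and 207.5 FPKM in Run and 225, 624 and 195 in NR, and Atp6v1e1 had 457, 107 and 198 in Run and 265, 302.5 and 252 in NR.

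Of the factors that take SNARE complexes apart after fusion, Nsf, the ATPase, had 109, 126 and 30.6 FPKM in Run and 102, 96.8 and 68.2 in NR (difference -0.22 ± 0.73 SE on the log2 scale; limma adjusted p = 0.983). Its adaptor gene Napa had 207.5, 187 and 87.6 FPKM in Run and 0.0428, 160 and 65.6 in NR, with NR replicate 1 again the library near 0. Its log2 difference was 2.76 ± 1.83 (SE; limma adjusted p = 0.978). Sypl, the synaptophysin relative of many tissues, had 55.2, 11.97 and 147 FPKM in Run and 77.6, 17.9 and 0.0203 in NR.

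The number of list genes at FPKM 1 or more was 63, 55 and 49 in Run and 44, 63 and 50 in NR. NR replicate 1 again was lowest and NR replicate 2 shared the highest count with Run replicate 1. Counts over all symbols were 6291, 6136 and 5534 in Run and 5426, 7355 and 5980 in NR, with NR replicate 1 lowest there too.

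**Figure D5:**
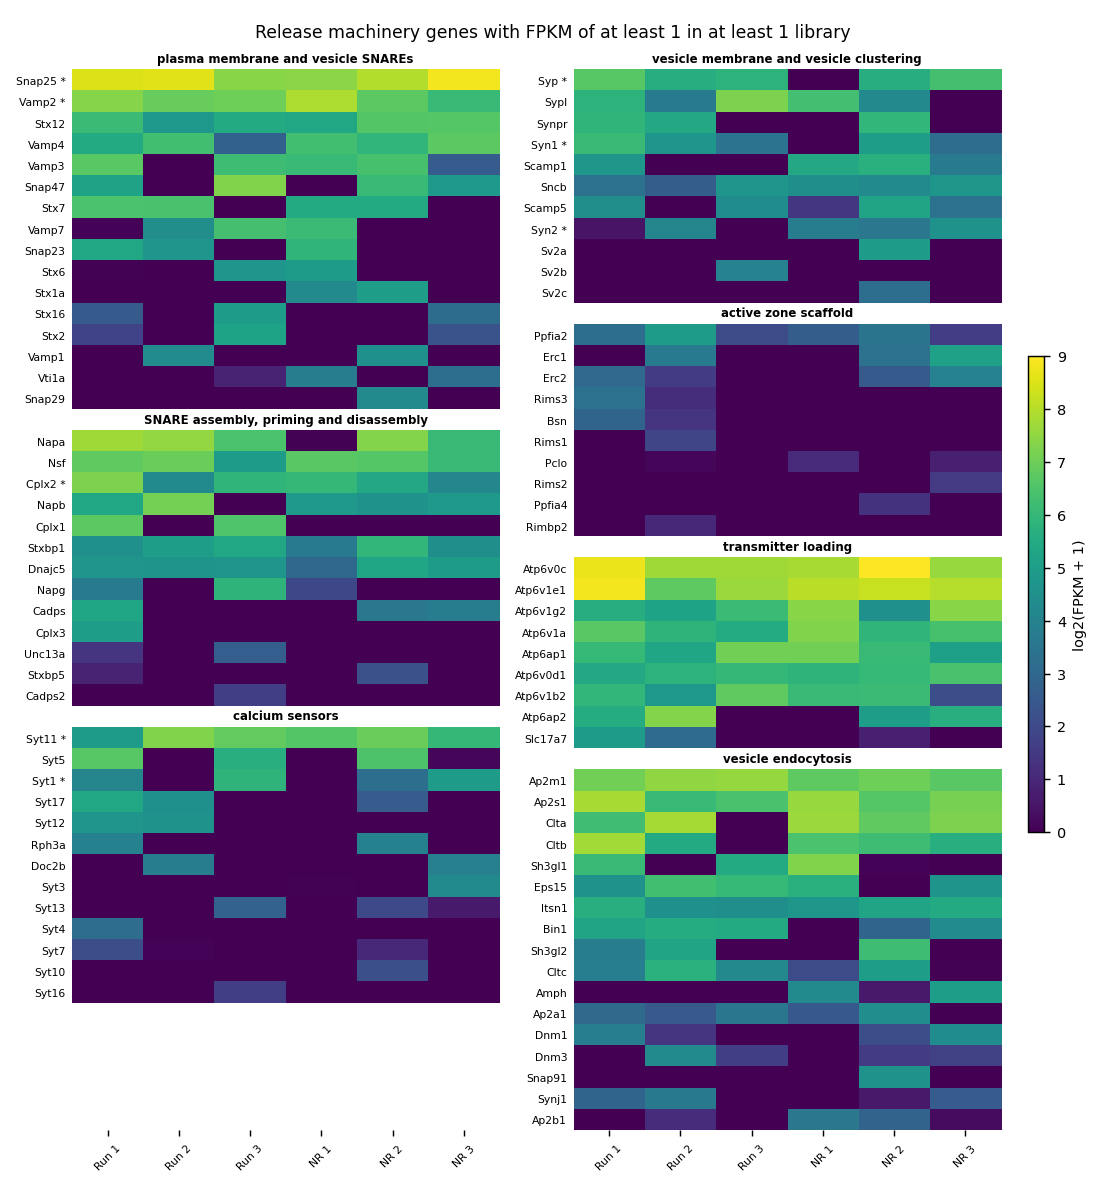
log2(FPKM + 1), from 0 (dark) to 9 (yellow), of release machinery genes that reached FPKM 1 in any library, by role and ordered by mean; the 3 Run libraries stand left of the 3 NR libraries and asterisks mark the 8 genes. Snap25, Vamp2, Syt11 and the proton pump genes Atp6v0c and Atp6v1e1 form continuous bright rows, while most sensor and scaffold rows are broken by libraries at or near 0.

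For the 4 genes at FPKM 1 in all 6 libraries, the nearest profiles were sought among 1750 other such genes by the mean absolute difference between centred log2(FPKM + 1) values over the 6 libraries. Nearest to Snap25 were Hint1, which encodes a nucleotide hydrolase, at 0.22, and Podxl, which encodes a sialomucin, at 0.24, beside a median of 0.75 over all genes compared. Vamp2 had Nabp2 and Morf4l1 at 0.13 and 0.17 (median 0.68), Syt11 had Rnf5 at 0.25 (median 0.87), and Cplx2 had Zc3h15 and Rpl39 at 0.29 and 0.31 (median 0.95). Hint1 had 216.5, 260 and 79.4 FPKM in Run and 134, 196.5 and 333 in NR, the same low and high libraries as Snap25. None of these nearest genes was on the release machinery list. With 6 libraries and so many genes, the closest of them are close by selection.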

How the data were processed

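Per the labels' protocols, polyadenylated RNA of sorted cells was converted with Smart-seq2. The authors deposited FPKM values in 1 table, each library being a column. Build mm10 and, among the tools, StringTie 2.1.7, STAR 2.7.5c and Trimmomatic 0.39 are named, per the submitters' processing notes. The sources used here do not say what each tool did or which annotation was used. Of the 55367 symbols, 96.2% matched GENCODE M21 of that build, which gave coordinates. Groups came from the titles. From the FPKM values, log2(FPKM + 1) was computed without further scaling and tested with limma 3.58.1 (R 4.3.3, mean-variance trend). The fit was checked on simulated data, with recovery required only at a spread well below the median residual SD of 1.98. That check does not show how often a change would be found at the spread of these data. FPKM had to reach 1 in at least 3 libraries. Residual SDs and SEs are from that fit. Single genes also got an exact permutation test (scipy 1.17.1, Python 3.11.15). The genes and lists were chosen with earlier results of these data known. Named besides the 8 genes were the 2 most abundant genes of each role, family relatives and nearest profiles. A few genes that this rule names are not reported here. Alternatives were another pseudocount, filters, scalings, no trend, a replicate block and leaving out each library.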

Additional observations from a re-analysis of the deposited data

How the results depend on the processing

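Under each of the 13 alternatives none of the 8 genes, none of the release machinery list and none of all tested genes passed an adjusted p of 0.05 by limma. The alternatives were a pseudocount of 0.1, no filter, FPKM of at least 1 in all 6 libraries, quantile normalization, scaling to equal sums, no trend, the replicate block and leaving out each library. The sums used for scaling left out the mitochondrially encoded genes and a further symbol. The smallest limma adjusted p of any of the 8 genes was 0.485. Of the 8 genes, 6 had a positive difference, and 3 of 4 did where FPKM of at least 1 was required in all 6 libraries, since Syt1, Syp, Syn1 and Syn2 could not be tested there. With 1 library left out the count was 4 to 7. Direction changed in 9 of 100 values, all with 1 library left out; the ranges over those 6 fits were -0.21 to 0.50 for Snap25, -0.21 to 0.70 for Vamp2, -0.79 to 2.24 for Syt1, -0.61 to 0.55 for Syt11 and -0.11 to 1.37 for Cplx2. Syp (0.04 to 3.21), Syn1 (0.63 to 3.15) and Syn2 (-3.74 to -1.69) kept their sign, and the difference in summed share was 0.00578 to 0.0401 percentage points. With the pseudocount of 0.1 the differences of these 3 genes were 3.05 for Syp, 3.11 for Syn1 and -4.0 for Syn2, each over 1.5 times that with a pseudocount of 1. With the replicate number as a block 0 genes passed, as without it. Libraries of the same number correlated at 0.0042 to 0.0211 over 6155 genes in their deviations from the group means. All 6 correlated best with their own number. Deviations within a group sum to 0, so these are not 6 separate agreements, and values this small do not decide whether numbers mark pairs. The labels do not say that a number marks shared animals or days. Depth is unknown from FPKM.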
